A study of Mus musculus with 4 samples.

Results

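The hypothalamus of a mouse inoculated with 2000000 C26 cells (2M) was compared with that of mice inoculated with 500000 C26 cells (0.5M), as the log2 level on the 2M array minus the log2 level on the 0.5M array. C26 is a murine colon adenocarcinoma line whose tumours cause cachexia, the wasting of body mass in cancer. These 2 arrays were taken of the 4 in the series, and all 19938 genes that a probe set named with a single symbol entered the difference. The other arrays, from sham-injected mice and from mice given 1000000 cells (1M), entered no main difference. Their levels stand beside many of the genes described.

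All animals were male CDF1 mice, a cross of BALB/c and DBA/2, housed singly on a standard diet and aged 10 to 11 weeks. Cells or vehicle were given under the skin of the flank in 0.2 ml of buffered saline under anaesthesia, and hypothalami were taken on day 20. The 0.5M array held equal amounts of RNA from 4 mice, the 1M array RNA from 3 and the sham array RNA from 4. The 2M array held RNA of 1 mouse per its sample description, although its title calls it pooled. A difference between 2M and 0.5M is therefore a difference between 1 mouse and a pool of 4, and the number of injected cells cannot be told apart from the individual animal. There was 1 array on each side, so no difference has a replicate check and none carries a p-value.

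The hypothalamus sets food intake through peptides with opposite actions. Neuropeptide Y drives feeding, and the peptides made from Pomc and Cartpt restrain it. It also commands the adrenal cortex through corticotropin-releasing hormone, and the glucocorticoids secreted in response act back on brain cells through a receptor that binds DNA. Tumour-bearing animals commonly have raised inflammatory cytokines and glucocorticoids. Bulk tissue holds neurons, astrocytes, myelin-forming oligodendrocytes, microglia, tanycytes and vessels, and a lower level of a marker can mean fewer cells of a type or less RNA per cell, which cannot be told apart.

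The tissue carried its defining transcripts on both arrays. Hcrt, the orexin precursor of the lateral hypothalamus, had a log2 level of 11.61 at 0.5M and 11.43 at 2M, and Avp, the vasopressin precursor, 10.42 and 10.47. The 0.5M array also stood apart from the other arrays in transcripts of neighbouring tissue. Gh, the growth hormone of the anterior pituitary, was at 10.80 log2 at 0.5M against 6.13 in sham, 6.91 at 1M and 6.85 at 2M. Prl, the prolactin gene of the same gland, was at 7.80 log2 at 0.5M against 3.95, 4.50 and 4.51. The log2 of the summed signal of the 12 measured pituitary genes was 11.66 at 0.5M and between 10.24 and 10.48 on the other arrays. Only 4 of the 12 were highest at 0.5M, and 4 were lowest at 2M. Cga, the subunit shared by several pituitary hormones, was at 8.60 log2 in sham, 8.56 at 0.5M, 8.59 at 1M and 8.10 at 2M. Of 11 measured striatal markers, 10 were highest at 0.5M, and the log2 of their summed signal was 13.08 there against 12.79 to 12.87 elsewhere. Gene differences that point down at 2M can thus rest on a high 0.5M level. For this reason the level on all 4 arrays is given for many genes, though not for all. The part of such tissue in the differences was not tested.

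Few genes differed by much. Among the 11963 genes past a filter on low levels (a mean over the 4 arrays of at least 6.59 log2, the 40th percentile), 26 genes (0.217%) were at least 0.5 log2 higher at 2M, a 1.41-fold difference, and 31 genes (0.259%) were at least that much lower. The median difference over these genes was -0.0029 log2, and 92.7% lay within 0.25 log2 of 0. With a threshold of 1 log2, 2 genes (0.0167%) were higher and 4 (0.0334%) lower. After cyclic loess normalization of the arrays, the split of 26 higher to 31 lower genes became 18 to 35. With the 1M array in place of the 0.5M array, 62 genes were higher at 2M and 63 lower. The 2M and 0.5M arrays correlated at 0.994 across probe sets, the highest of the pairs of arrays, whose correlations began at 0.984.

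Genes of low level leaned toward a higher level at 2M than at 0.5M. The lower quartile over all probe sets was 5.07 log2 at 0.5M, 5.12 in sham, 5.16 at 1M and 5.14 at 2M. It was thus lowest on the 0.5M array, and its part in the lean was not tested. When all genes were cut by level into 5 groups of 3987 or 3988, the median difference was 0.08 and 0.11 log2 in the 2 groups of lowest level, then 0.03, -0.0043 and -0.02 log2 in order of rising level. Of the 7975 genes below the filter, 162 (2.03%) were at least 0.5 log2 higher and 45 (0.564%) lower. Positive values of genes below the filter have to be read beside their own median of 0.10 log2. At the edge of the threshold, Bcl2l12 and Prdm8 were just inside at 0.50 log2, and Aqp2 and Krtap5-3 just outside at 0.499 and 0.497. On the lower side Lpcat2 and Ly86 were just inside at -0.50, and Emp2 and AI506816 just outside at -0.498 and -0.496.

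**Figure D1:**
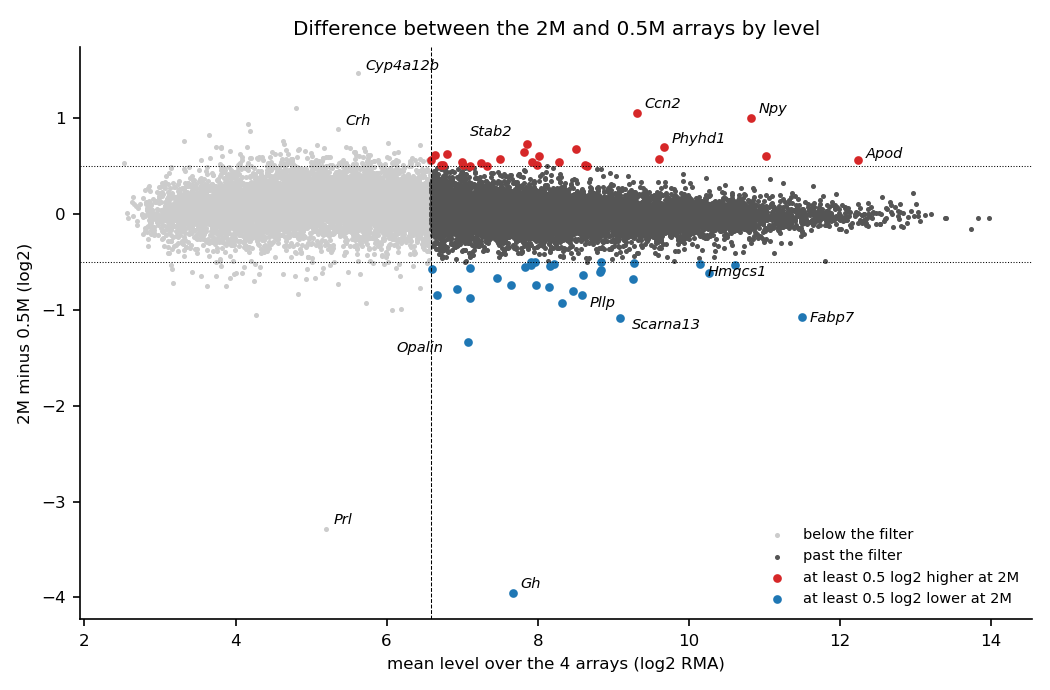
Difference between the 2M and 0.5M arrays (log2, vertical axis) against the mean level over the 4 arrays (log2 RMA, horizontal axis), 1 point per gene, with the filter at 6.59 log2 as a dashed line and 0.5 log2 in each direction as dotted lines. The 26 red and 31 blue genes are few among 11963, Gh and Prl lie farthest down, and the grey genes below the filter lie more often above 0 than below.

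In most of the counted genes the 2M array was the outermost of the 4. Their choice by the difference between 2M and 0.5M favours an outermost place for 1 of these arrays. It also favours a 1M level between them, so the counts below describe the chosen genes and test nothing. Of the 26 higher genes, the level at 2M was the highest of the 4 arrays in 25 and the level at 0.5M was the lowest in 12. Of the 31 lower genes, the level at 2M was the lowest in 22 and the level at 0.5M was the highest in 14. In 9 of the 31, the 0.5M array alone was outermost, Gh and Pde10a among them. The 1M level lay between those of 0.5M and 2M in 19 of the 26 and in 19 of the 31.

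**Figure D2:**
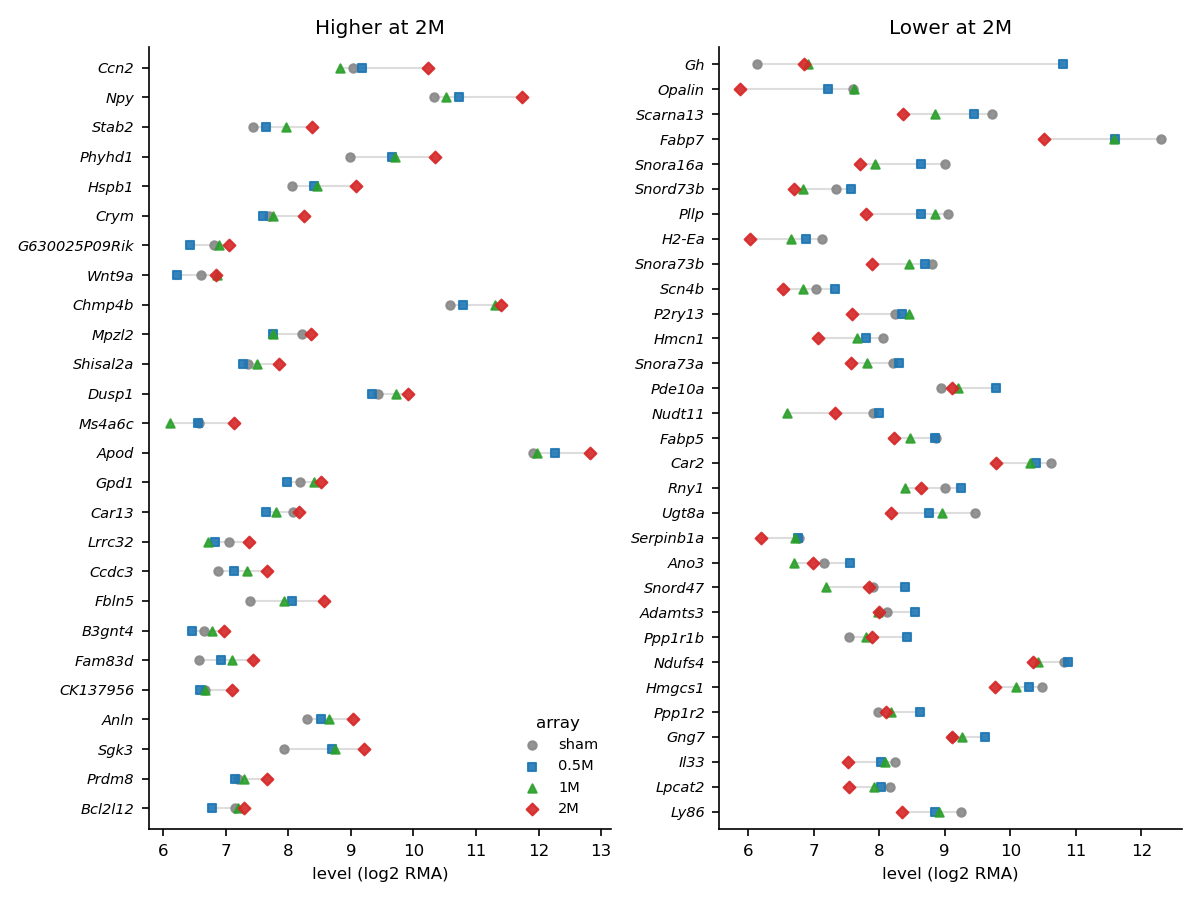
Level (log2 RMA, horizontal axis) of each of the 26 genes at least 0.5 log2 higher and the 31 at least 0.5 log2 lower at 2M than at 0.5M, on the sham (grey circle), 0.5M (blue square), 1M (green triangle) and 2M (red diamond) arrays. The red diamond is the rightmost symbol in 25 of the 26 rows on the left and the leftmost in 22 of the 31 rows on the right. The genes were chosen by the difference between 2M and 0.5M, which favours an outermost place for 1 of these arrays. In the row of Gh the 0.5M square lies alone at 10.80.

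Npy stood out among the feeding peptides. Npy, which encodes the neuropeptide that most strongly promotes feeding, had a log2 level of 10.32 in sham, 10.73 at 0.5M, 10.53 at 1M and 11.74 at 2M. The 2M array lay above the others, which spanned 10.32 to 10.73. It was 2.01-fold over 0.5M (a difference of 1.00 log2). It was 1.21 log2 above the 1M array. No other measured peptide that promotes feeding reached 0.5 log2. Qrfp, the precursor of a peptide that stimulates feeding, came nearest with 6.40 at 0.5M and 6.88 at 2M, and its level at 1M was 6.82. Hcrt differed by -0.17 log2, Pmch, the melanin-concentrating hormone precursor, by -0.05, Gal, the galanin precursor, by 0.03 and Ghrl, the ghrelin precursor, by 0.19. The list of 11 such peptides had 10 measured members, of which 6 had a positive and 4 a negative difference, with a median of 0.07 log2 beside 0.026 over all 19938 genes. Agrp, the partner of Npy in arcuate neurons, was not analysed here.

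Peptides that limit feeding differed little. Cartpt was at 9.39 log2 in sham, 9.34 at 0.5M, 9.52 at 1M and 9.07 at 2M, a difference of -0.27 log2. Pomc, the precursor of alpha-melanocyte-stimulating hormone, was at 7.19, 6.99, 6.98 and 6.73 on the same arrays, a difference of -0.26. Both were lowest at 2M. The largest positive differences among these peptides were those of Nmb, the neuromedin B precursor, at 0.27 log2 (6.67 at 0.5M and 6.94 at 2M) and Adm, the adrenomedullin precursor, at 0.26, which did not pass the filter. Of the 16 measured members 11 were positive and 4 negative, the median was 0.08 log2 and 0 reached 0.5 log2 in either direction. Only 9 passed the filter, with a median of 0.03 log2. Of all 19938 genes 57.2% were positive, with a median of 0.026 log2.

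**Figure D3:**
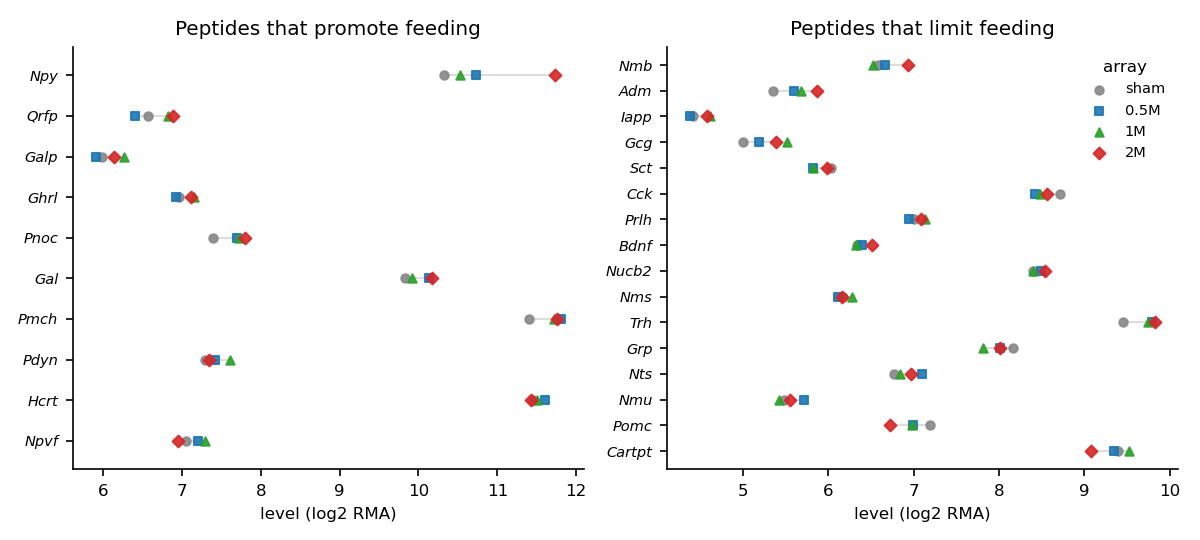
Level (log2 RMA, horizontal axis) of each measured peptide that promotes feeding (left, 10 genes) or limits it (right, 16 genes) on the sham, 0.5M, 1M and 2M arrays, ordered by the difference between 2M and 0.5M. The 2M diamond of Npy lies at 11.74, to the right of the other arrays at 10.32 to 10.73, and the symbols of most other peptides lie close together. Pomc and Cartpt are the lowest rows on the right, at -0.26 and -0.27 log2.

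Receptors of these peptides and of peripheral signals were close to level. Of 20 measured receptors of the NPY, melanocortin and other feeding peptides, 13 were positive and 7 negative, with a median of 0.02 log2. Npy1r, a receptor of neuropeptide Y, was at 7.68 log2 at 0.5M and 7.90 at 2M, and Mc4r, the melanocortin receptor whose loss causes obesity, at 7.93 and 8.01. Lepr, the leptin receptor, was at 7.31 and 7.32. Glp1r, the receptor of glucagon-like peptide 1, had the largest difference among 16 measured receptors and inhibitors of leptin, insulin and ghrelin signalling, 8.64 at 0.5M against 9.04 at 2M. Its sham level of 9.02 lay as high as that at 2M.

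The gene of the releasing hormone of the stress axis and most listed genes that answer to glucocorticoids were higher at 2M than at 0.5M. Of 9 measured stress peptides and receptors 5 were positive and 4 negative, with a median of 0.07 log2 beside 0.026 over all genes. The 5 past the filter had a median of -0.04 log2. Crh, which encodes corticotropin-releasing hormone, was at 5.28 log2 in sham, 5.07 at 0.5M, 5.09 at 1M and 5.96 at 2M. Its 2M level lay above the other arrays, 1.85-fold over 0.5M (0.88 log2), but the gene did not pass the filter, where positive differences were common. Avp, which acts beside Crh on the pituitary, differed by 0.05 log2. Nr3c1, the glucocorticoid receptor, was at 8.55 log2 at 0.5M and 8.45 at 2M, and Crhr1, a receptor of the hormone, at 7.61 and 7.42.

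Glucocorticoid-responsive genes were higher at 2M more often than not. Of 26 listed genes 25 were measured and 24 passed the filter. A positive difference was found in 20 of the 25 and a negative one in 5, with a median of 0.26 log2, and 2 reached 0.5 log2. Of all genes past the filter 48.8% were positive and 0.217% reached 0.5 log2. At 2M, 15 of them were at their highest of the 4 arrays. The median level relative to sham was 0.21 log2 at 0.5M, 0.31 at 1M and 0.33 at 2M. With 1M in place of 0.5M the median difference was 0.14 log2.

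Dusp1 led the list. This phosphatase, which switches off MAP kinases, was at 9.43 log2 in sham, 9.34 at 0.5M, 9.72 at 1M and 9.92 at 2M. Gpd1, the glycerol-3-phosphate dehydrogenase of the cytosol, was at 8.19, 7.98, 8.41 and 8.53. In both genes the 1M array was nearer to 2M than to 0.5M, and against 1M the differences were 0.20 and 0.12 log2. Arrdc2, an arrestin-domain protein, differed by 0.48 log2 (6.88 at 0.5M, 7.34 at 1M and 7.35 at 2M). Sult1a1, a sulfotransferase, differed by 0.46 (7.85, 7.71 and 8.31). Fkbp5, a co-chaperone that dampens the glucocorticoid receptor, climbed over the arrays from 8.24 in sham to 8.44, 8.61 and 8.77. Plin4, a lipid droplet protein, was at 6.69 in sham, 7.88 at 0.5M, 8.15 at 1M and 8.30 at 2M, so that most of its distance from sham was present at 0.5M.

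Not all targets took part. Tsc22d3, a leucine zipper protein induced by glucocorticoids in many cells, was at 8.91 log2 at 0.5M and 8.80 at 2M. Zbtb16, a transcription factor, was at 9.74 and 9.65, and Klf9, a further one, at 9.89 and 9.86. All 3 were higher on these arrays than in sham. Mertk, a receptor for the uptake of dead cells, had the most negative difference of the list at -0.28 log2.

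The glucocorticoid receptor binds, as a pair, an inverted repeat separated by a short spacer. The letters ACANNNTGT preceded by GN and followed by NC, where N is any base, read the same on both strands and were searched in the 250 bases before each start in the RefSeq promoter table (assembly GRCm38.p6, the C57BL/6J reference and not the strain studied). They were found in 4 of the 20 list members with an entry (Sgk1, Mt1, Fam107a and Map3k6) and in 0.416% of the 15614 analysed genes with an entry. The match is a description of letters and not a measured binding site. The sequences of 3 of these genes are shown 5′ to 3′ with the match in capitals, because this list had the highest median of those plotted by member and the element is that of its receptor. They lie at chr10:21993640-21993889 (plus strand, upstream of 1 of several listed Sgk1 starts), chr14:8309780-8310029 (minus strand, 1 of several Fam107a starts) and chr4:133240568-133240817 (plus strand, Map3k6). The matches begin 188, 118 and 181 bases before the start.
Sgk1: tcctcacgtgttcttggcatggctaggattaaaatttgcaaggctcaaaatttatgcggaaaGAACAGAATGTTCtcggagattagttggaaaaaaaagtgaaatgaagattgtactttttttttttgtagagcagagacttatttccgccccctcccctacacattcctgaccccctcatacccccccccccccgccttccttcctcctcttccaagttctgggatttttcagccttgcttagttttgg
Fam107a: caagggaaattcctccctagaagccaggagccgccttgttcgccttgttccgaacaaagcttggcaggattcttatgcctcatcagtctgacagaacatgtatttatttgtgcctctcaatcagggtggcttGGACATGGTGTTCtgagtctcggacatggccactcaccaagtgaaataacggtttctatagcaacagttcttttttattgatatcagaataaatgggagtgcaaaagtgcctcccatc
Map3k6: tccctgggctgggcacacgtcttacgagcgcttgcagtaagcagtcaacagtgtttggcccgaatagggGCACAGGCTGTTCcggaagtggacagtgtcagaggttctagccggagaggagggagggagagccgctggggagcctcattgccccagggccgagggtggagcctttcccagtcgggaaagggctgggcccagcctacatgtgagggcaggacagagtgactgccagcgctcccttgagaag

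Sgk1, a kinase that regulates ion transport, had a log2 level of 8.82 in sham, 9.15 at 0.5M, 9.21 at 1M and 9.42 at 2M. Fam107a, an actin-binding protein of stressed neurons and glia, was at 10.60, 11.06, 11.19 and 11.43, and Map3k6, a stress-activated kinase, at 6.47, 6.71, 6.84 and 7.16. All 3 were lowest in sham and highest at 2M, with differences of 0.26, 0.37 and 0.44 log2. Mt1, a metallothionein that also carried the match, differed by 0.04 log2.

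**Figure D4:**
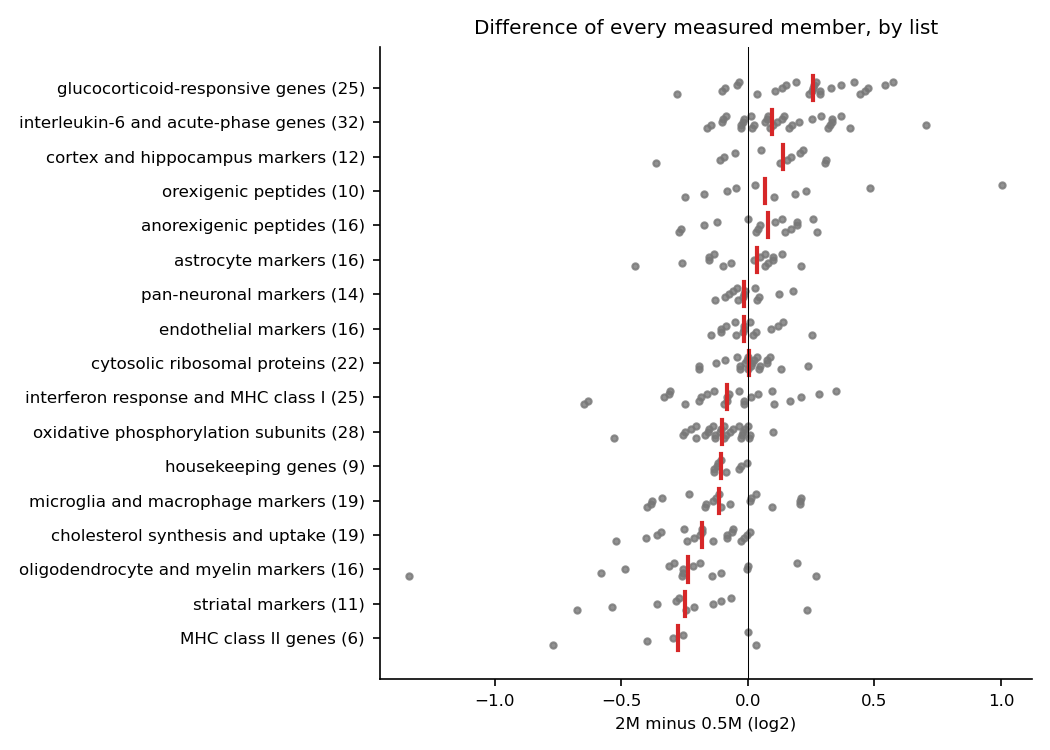
Difference between the 2M and 0.5M arrays (log2, horizontal axis) of every measured member of 17 gene lists, with the number of members in parentheses, 1 grey point per gene and the median as a red bar. Glucocorticoid-responsive genes have the highest median of these lists (0.26) and MHC class II genes the lowest (-0.28). Vertical scatter within a row only separates the points.

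Acute-phase genes downstream of interleukin-6, a cytokine raised in this kind of cachexia, differed less. Lcn2, the siderophore-binding lipocalin-2, was at 6.02 log2 in sham, 8.53 at 0.5M, 8.23 at 1M and 8.82 at 2M. Lrg1, a secreted leucine-rich glycoprotein, was at 5.99, 7.96, 7.84 and 8.16, and Osmr, the oncostatin M receptor, at 6.70, 7.71, 7.77 and 7.79. These 3 genes stood far above sham on every tumour-bearing array, while 2M and 0.5M differed by 0.29, 0.20 and 0.07 log2. Of 32 measured genes of this list 23 were positive and 9 negative, with a median of 0.09 log2. Only 14 passed the filter, and among all genes below it 69.7% were positive, with a median of 0.10 log2. Against the 1M array the median was -0.02 log2.

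The largest difference in this list lay below the filter. Hamp, the iron hormone hepcidin, was at 3.30 log2 in sham, 3.58 at 0.5M, 4.04 at 1M and 4.28 at 2M. Among members past the filter, Cp, the copper-carrying ferroxidase ceruloplasmin, differed by 0.33 log2 (8.72, 8.40 and 9.05 at 0.5M, 1M and 2M) and Serpina3n, a protease inhibitor of reactive astrocytes, by 0.32 (11.17, 11.18 and 11.49). Both were highest at 2M. Socs3, a feedback inhibitor of cytokine receptors, was at 6.68 at 0.5M, 7.09 at 1M and 6.94 at 2M, and Stat3, the transcription factor of the pathway, at 9.47, 9.55 and 9.38.

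The largest positive difference past the filter belonged to no list. Ccn2, a matricellular protein also known as connective tissue growth factor, had a log2 level of 9.03 in sham, 9.17 at 0.5M, 8.82 at 1M and 10.23 at 2M. Its 2M level was 2.08-fold that at 0.5M (1.05 log2), and the other arrays lay below it, between 8.82 and 9.17. Apod, a lipocalin that carries lipids, was at 11.91, 12.27, 11.97 and 12.83, and Fbln5, an elastic-fibre protein, at 7.40, 8.05, 7.92 and 8.57.

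Several of the higher genes took the order of cell number over the 4 arrays. Their choice by the difference between 2M and 0.5M favours a 1M level between the 2. Stab2, a scavenger receptor for hyaluronan, was at 7.44 log2 in sham, 7.64 at 0.5M, 7.97 at 1M and 8.38 at 2M. Phyhd1, a dioxygenase-domain protein, was at 8.99, 9.65, 9.70 and 10.35. Hspb1, a small heat shock protein, was at 8.06, 8.40, 8.46 and 9.08, and Chmp4b, a subunit of the membrane-cutting ESCRT machinery, at 10.58, 10.80, 11.30 and 11.40. Hspb1 stood alone among 17 measured heat shock proteins, whose median was -0.03 log2 and of which 1 reached 0.5 log2. Sgk3, a kinase related to Sgk1, was at 7.94 in sham, 8.70 at 0.5M, 8.74 at 1M and 9.21 at 2M. In Phyhd1, Hspb1 and Sgk3 the 0.5M and 1M levels lay close together, with 2M above them.

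Not all of the higher genes followed the order of cell number. Crym, a protein that binds thyroid hormone and is found in tanycytes, was at 7.70 log2 in sham, 7.60 at 0.5M, 7.75 at 1M and 8.24 at 2M. Wnt9a, a secreted Wnt ligand, was at 6.61, 6.23, 6.87 and 6.84, so that 0.5M was the array apart, and against 1M the difference was -0.03 log2. Lrrc32, which docks latent TGF-beta on the cell surface, was at 7.06, 6.84, 6.71 and 7.38. The cytosolic carbonic anhydrase Car13 was at 8.08 in sham, 7.64 at 0.5M, 7.80 at 1M and 8.18 at 2M. The adhesion molecule Mpzl2 was at 8.22, 7.76, 7.76 and 8.36. In both of these genes the sham level was close to that at 2M, and 0.5M and 1M lay lower. The remaining genes of this side, such as the actin-binding Anln (8.53 at 0.5M and 9.04 at 2M) and Ms4a6c, a membrane protein of macrophages (6.56 and 7.13), differed by 0.50 to 0.63 log2.

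Below the filter, Cyp4a12b, a fatty acid hydroxylase of male liver and kidney, had the largest positive difference of all genes. Its log2 level was 5.35 in sham, 5.26 at 0.5M, 5.14 at 1M and 6.74 at 2M. Svs2, a seminal vesicle protein, was at 3.93, 4.65, 4.83 and 5.76, and Apol7c, an apolipoprotein L, at 4.01, 3.82, 4.23 and 4.68.

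Most oligodendrocyte and myelin genes were lower at 2M. Of 18 listed genes 16 were measured and all 16 passed the filter. A negative difference was found in 14 and a positive one in 2, with a median of -0.24 log2, and 2 reached -0.5 log2. Of all 11963 genes past the filter 6111 were negative and 0.259% reached -0.5 log2. In 14 of the 16 the 2M level was the lowest of the 4 arrays, while the 0.5M level was the highest in 0. Cldn11 and Sox10, counted as negative and as lowest at 2M, were level between 0.5M and 2M, at 10.55 and 8.10 log2. Against the 1M array the median difference was -0.41 log2. The log2 of the summed signal of the list was 14.16 in sham, 14.03 at 0.5M, 14.24 at 1M and 13.88 at 2M.

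Opalin, a membrane protein of mature oligodendrocytes, had a log2 level of 7.60 in sham, 7.22 at 0.5M, 7.61 at 1M and 5.88 at 2M. It was 2.53-fold lower at 2M than at 0.5M, and the 2M array lay far below the others. Ugt8a, which makes the myelin lipid galactosylceramide, was at 9.45, 8.76, 8.95 and 8.18, and Aspa, which breaks down N-acetylaspartate, at 8.41, 8.21, 8.21 and 7.73. Of the structural genes on the list, those with the following levels differed less. Mog was at 10.00 log2 at 0.5M and 9.69 at 2M, Mag at 10.26 and 10.00, Cnp at 11.00 and 10.74 and Mbp, which compacts the sheath, at 11.56 and 11.45.

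Mobp, a structural myelin gene, and Olig2, a transcription factor of the lineage, were the positive members at 0.27 and 0.20 log2. Mobp was at 10.37 in sham, 10.63 at 0.5M, 10.84 at 1M and 10.90 at 2M. Pllp, a proteolipid of myelin that was not on the list, was at 9.06, 8.64, 8.86 and 7.80, a 1.80-fold lower level at 2M than at 0.5M. Precursor genes were split. Pdgfra and Cspg4, which mark oligodendrocyte precursors, differed by 0.07 and 0.08 log2, and Enpp6 and Bcas1, which mark newly formed oligodendrocytes, by -0.38 and -0.31.

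Neurons and astrocytes showed no such shift of their lists. The 14 pan-neuronal markers had a median difference of -0.02 log2 and a range from -0.13 to 0.18. The 16 astrocyte markers had a median of 0.04 log2, and their most negative member was the amino acid transporter Slc7a10, at 9.73 at 0.5M and 9.29 at 2M. Gfap, the filament protein of reactive astrocytes, was at 9.08 and 9.15.

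**Figure D5:**
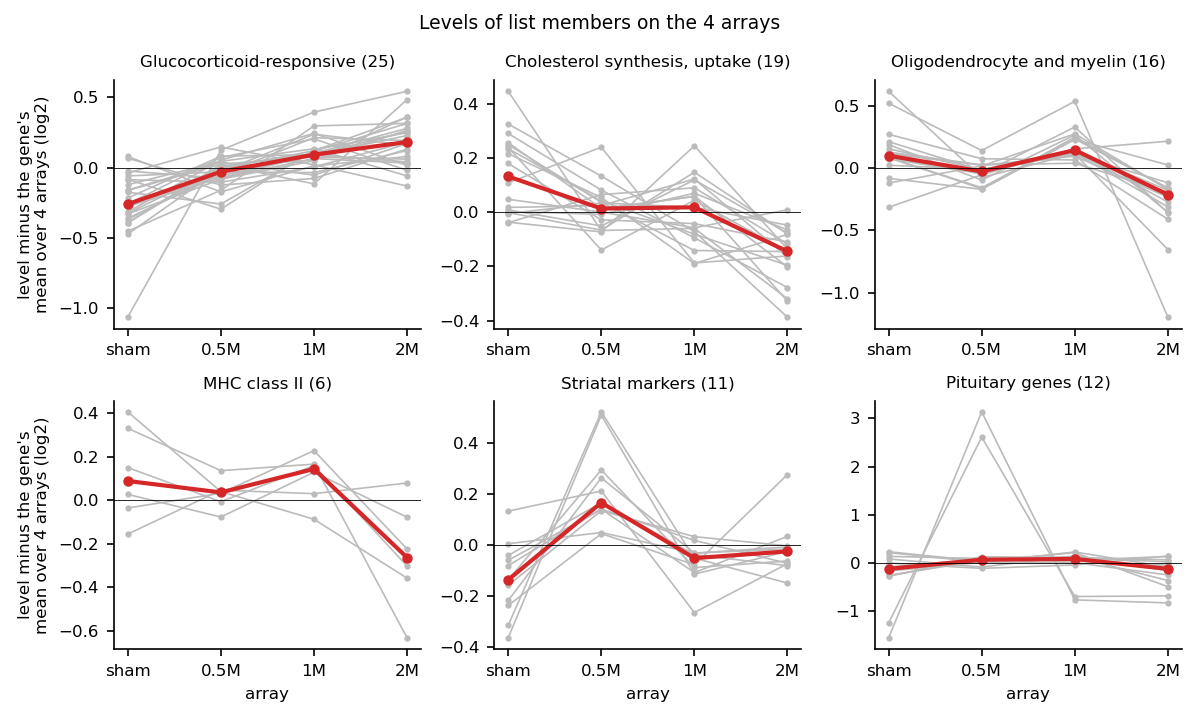
Level of every measured member of 6 gene lists on the sham, 0.5M, 1M and 2M arrays, as log2 level minus the mean of that gene over the 4 arrays (vertical axis), with a grey line per gene and the median in red. The glucocorticoid line is highest at 2M, the cholesterol, myelin and MHC class II lines are lowest at 2M, and the striatal line peaks at 0.5M. In the pituitary panel the 2 separate lines that peak at 0.5M are Gh and Prl, and each panel has its own vertical scale.

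Cholesterol genes leaned the same way as myelin. Of 23 listed genes of cholesterol synthesis and uptake 19 were measured, and all of these passed the filter. A negative difference was found in 18 and a positive one in 1, with a median of -0.18 log2, and 1 reached -0.5 log2, beside the same 6111 of 11963 and 0.259% over all genes past the filter. In 16 of the 19 the 2M level was the lowest of the 4 arrays. The median difference from the 1M array was -0.19 log2.

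Hmgcs1, the synthase that makes HMG-CoA, had a log2 level of 10.48 in sham, 10.29 at 0.5M, 10.08 at 1M and 9.77 at 2M, lower at each higher cell number. Msmo1, a demethylating oxidase of late sterol synthesis, took the same order at 9.50, 9.29, 9.12 and 8.93. Nsdhl, which acts at the same stage, was at 9.33, 9.09, 9.13 and 8.74. Idi1, an isomerase early in the pathway, differed by -0.24 log2, and Sqle, which makes squalene epoxide, by -0.21. Fdft1, the squalene synthase, was at 10.83 in sham, 10.96 at 0.5M, 10.53 at 1M and 10.56 at 2M. Its 1M level was as low as its 2M level. Srebf2, the transcription factor that switches these genes on, was at 10.06 log2 at 0.5M and 9.87 at 2M, and Fdps, Lss and Dhcr7 differed by no more than -0.03. The part of the lower myelin transcripts in these differences was not tested.

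The factors that control these genes read a CCAAT box and a sterol regulatory element. In the 250 bases before the start, CCAAT on either strand (ATTGG on the opposite one) was found in 13 of 15 list members with an entry and in 38.8% of all 15614 genes. The sterol regulatory core TCACNCCAC, also on either strand, was found in 1 of the 15, Hmgcs1, and in 1.2% of all genes. The 2 patterns do not overlap one another. The Hmgcs1 sequence at chr13:119690101-119690350 (GRCm38.p6, plus strand, RefSeq) is shown because Hmgcs1 had the most negative difference of the list and held both patterns. Matches are in capitals, with CCAAT boxes on the opposite strand beginning 237, 176 and 45 bases before the start and the sterol core 137 bases before it.
Hmgcs1: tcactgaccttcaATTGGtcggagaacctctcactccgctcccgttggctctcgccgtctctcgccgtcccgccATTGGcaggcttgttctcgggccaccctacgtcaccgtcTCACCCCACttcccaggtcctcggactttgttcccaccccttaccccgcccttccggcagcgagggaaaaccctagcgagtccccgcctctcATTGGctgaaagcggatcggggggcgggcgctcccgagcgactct

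Fatty-acid-binding proteins were the other lipid genes that stood apart. Fabp7, the brain fatty-acid-binding protein of radial glia, tanycytes and astrocytes, had a log2 level of 12.30 in sham, 11.60 at 0.5M, 11.58 at 1M and 10.52 at 2M. It was 2.11-fold lower at 2M than at 0.5M, and both lower cell numbers already lay below sham. Fabp5, a related carrier, was at 8.86, 8.86, 8.47 and 8.22, so that sham and 0.5M were level and 2M lowest. Among the other 22 measured genes of fatty acid and ketone metabolism none reached 0.5 log2, and Pdk4, the kinase that spares glucose, was the most positive at 0.27. Among 16 measured markers of tanycytes and radial glia, Fabp7 and Crym were the extremes in opposite directions and the median was 0.01 log2. Car2, a carbonic anhydrase of oligodendrocytes and red cells, was at 10.62 in sham, 10.39 at 0.5M, 10.30 at 1M and 9.78 at 2M. The probe sets shared by the haemoglobin genes, which mark red cells, differed by -0.27 to -0.30 log2. Unlike Car2, all of them were lowest in sham and highest at 0.5M, with 2M close to 1M. The probe set of highest level was at 11.50 log2 in sham, 12.68 at 0.5M, 12.39 at 1M and 12.38 at 2M.

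Several MHC class II genes were lower on the 2M array. H2-Ea, an MHC class II alpha chain, was at 7.13 log2 in sham, 6.87 at 0.5M, 6.65 at 1M and 6.03 at 2M, 1.80-fold lower at 2M than at 0.5M. Of 6 measured members of the class II list, to which H2-Ea did not belong, 5 were negative and 1 positive, the median was -0.28 log2 and the 2M level was the lowest of the 4 arrays in 5. Of all 19938 genes 8506 were negative, with a median of 0.026 log2. Cd74, the chaperone of class II molecules, was at 6.78, 6.58, 6.61 and 5.81 and did not pass the filter. Only H2-Eb1 and H2-DMa of the list did, at -0.30 and -0.26 log2. H2-Ab1, a beta chain counted among the negative members and among those lowest at 2M, was level at 5.85 log2 at 0.5M and 2M. Ciita, the factor that switches class II genes on, differed by 0.03 log2.

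Microglial genes were divided. P2ry13, a purine receptor of microglia, was at 8.23 log2 in sham, 8.34 at 0.5M, 8.46 at 1M and 7.58 at 2M. Cx3cr1, the fractalkine receptor, was at 8.59, 8.34, 8.48 and 7.95, and P2ry12, which guides microglial processes, at 6.66, 6.78, 6.99 and 6.40. These 3 receptors were lowest at 2M. The complement genes C1qa, C1qb and C1qc, made by the same cells, were highest there, with differences of 0.20, 0.10 and 0.20 log2. Of 19 measured markers of microglia and macrophages 7 were positive and 12 negative, with a median of -0.11 log2, beside 57.2% positive over all genes. Ly86, which pairs with a receptor related to Toll-like receptors, was at 9.24 in sham, 8.85 at 0.5M, 8.91 at 1M and 8.35 at 2M. Il33, an alarm cytokine that oligodendrocytes and astrocytes make, was at 8.24, 8.02, 8.08 and 7.52.

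Interferon-responsive and MHC class I genes, with the peptide transporter Tap1 at 0.10 log2 among them, had 17 negative and 8 positive members of 25 measured, with a median of -0.08 log2. Of all 19938 genes 57.2% were positive. Only 11 members passed the filter, with a median of -0.07 log2. The most negative, Ifit1 at -0.65 and Rsad2 at -0.63 log2, both lay below the filter. B2m, which encodes the small subunit of MHC class I molecules, was at 11.18 in sham, 10.89 at 0.5M, 10.46 at 1M and 10.64 at 2M, so that 2M was not its lowest array.

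Small differences in one direction were not limited to immune genes. The 9 measured housekeeping genes were all negative, from -0.14 log2 for Tbp to -0.0040 for Actb, with a median of -0.11. Of 28 measured subunits of oxidative phosphorylation 25 were negative, with a median of -0.10 log2, close to that of the housekeeping genes. All measured members of both lists passed the filter, past which 6111 of 11963 genes were negative. Ndufs4, a subunit of complex I, was the exception in size, at 10.82 in sham, 10.88 at 0.5M, 10.42 at 1M and 10.34 at 2M. The 22 measured cytosolic ribosomal protein genes had a median of 0.0064 log2.

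Small nucleolar RNA genes made up a good share of the lower genes. Of the 31 lower genes 7 encode small RNAs, against 0 of the 26 higher ones. Of 55 measured small nucleolar and Cajal body RNA genes 32 passed the filter, of which 6 were lower by at least 0.5 log2 and 0 higher, beside 0.259% and 0.217% of all genes past the filter. The median over all 55 was -0.08 log2. These RNAs guide the chemical modification of ribosomal and spliceosomal RNA. Scarna13 was at 9.72 log2 in sham, 9.45 at 0.5M, 8.85 at 1M and 8.36 at 2M. Snora16a took the same order, with 8.63 at 0.5M, 7.94 at 1M and 7.70 at 2M, and Snord73b was at 7.33 in sham and then at 7.57, 6.83 and 6.69. In all 3 genes the 1M level was nearer to that of 2M than to that of 0.5M. In Snord47 and in the Y RNA gene Rny1, which are also among the 7, the 0.5M array alone was outermost and the 1M level was lower than that at 2M. Scarna13 differed by -0.48 log2 from the 1M array. Of 301 measured microRNA genes 95 passed the filter and 0 of these reached 0.5 log2, with Mir370 nearest at 0.46.

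A group of lower genes rested on the 0.5M array. Besides Gh, whose level at 0.5M was 15.5-fold that at 2M, the striatal genes Pde10a and Ppp1r1b belonged to it. Pde10a, a phosphodiesterase of striatal neurons, was at 8.94 log2 in sham, 9.78 at 0.5M, 9.20 at 1M and 9.11 at 2M. Ppp1r1b, which encodes the dopamine-regulated phosphatase inhibitor DARPP-32, was at 7.54, 8.42, 7.79 and 7.88. Drd1, a dopamine receptor, and Rgs9, a regulator of its signalling, differed by -0.36 and -0.27 log2, and both were highest at 0.5M. The median of the 11 striatal markers was -0.25 log2 against 0.5M and 0.02 against 1M.

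Scn4b, a sodium channel subunit, was at 7.03 log2 in sham, 7.32 at 0.5M, 6.84 at 1M and 6.53 at 2M, so that it was both highest at 0.5M and lowest at 2M. Gng7, a G protein subunit common in striatum, was at 9.11, 9.62, 9.26 and 9.11. Ano3, an anoctamin, was at 7.15, 7.55, 6.69 and 6.99, and Nudt11, which acts on inositol pyrophosphates, at 7.91, 7.99, 6.60 and 7.32. From the 1M array the last pair differed by 0.30 and 0.72 log2, in the opposite direction. Without the genes of the pituitary and striatal lists, 26 genes were higher and 28 lower. The 28 still hold Gng7, Scn4b, Ano3 and Nudt11, which are on neither list and were highest at 0.5M.

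Where a gene had several probe sets, the one of highest mean level stood for it, and this mattered for Hmcn1. This large matrix protein, hemicentin-1, was at 7.80 log2 at 0.5M and 7.06 at 2M on the chosen probe set, a difference of -0.74. Over its 77 probe sets the mean difference was -0.17 log2, and 62 were negative and 15 positive. Adamts3, which trims procollagen, had 16 probe sets, all negative, with a mean of -0.40 log2 beside -0.55 on the chosen one. Both probe sets of Hspb1 were positive, at 0.65 and 0.68, and both of Fabp5 negative, at -0.52 and -0.63.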

How the data were processed

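Hypothalamic RNA of 4 groups was hybridized to 1 whole-transcript array each. The deposited values are log2 levels that the authors made with RMA, per the submitters' processing notes: background correction, quantile alignment of the arrays and a summary per probe set. The version, the software and a genome build were not given in the sources used here. A change shared by all transcripts is lost in quantile alignment. Of 35556 probe sets, 21789 carried exactly 1 symbol in the platform annotation, 1621 carried several and the others were unnamed here. Of the former, 21698 matched the RefSeq table of GRCm38.p6. They gave 19938 genes, and the probe set of highest mean over the 4 arrays stood for a gene. Of the value columns, 0 had no sample.

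The difference was the 2M minus the 0.5M log2 level. Genes with a mean at or above the 40th percentile were counted at 0.5 log2, with no test, since each side was 1 array, and so few arrays limit the precision. Named genes were the 20 most positive and 20 most negative past the filter without small RNA, predicted and receptor-cluster (olfactory, vomeronasal) genes. Also named were 4 small RNA genes and 5 genes below the filter in each direction, up to 5 members per list and a fixed set of peptides and acute-phase genes. Others were chosen after their values were seen, as list members or as counted genes. The comparison and the 52 gene lists (861 genes, 780 measured) were chosen with earlier results of these data known. Ghrl and Pcsk1n were moved between lists after the values were seen, because of their known roles. Counting was tested on simulated data. Python 3.11.15, numpy 2.4.6, pandas 2.3.3, matplotlib 3.10.9, and R 4.3.3 with limma 3.58.1 for cyclic loess were used. Alternatives were the threshold, the filter, the probe set choice, centring, cyclic loess and other reference arrays.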

Additional observations from a re-analysis of the deposited data

How the results depend on the processing

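No paired analysis was possible because each group was 1 array, and no replicate could be left out for the same reason. The counts of 26 higher and 31 lower genes became 2 and 4 at a threshold of 1 log2 and 188 and 76 without the filter, and 14 genes were higher with a 60th percentile filter. Averaging probe sets, centring and cyclic loess kept both counts within 1.5 times and every list median within 0.1 log2. With the 60th percentile filter, interferon and pituitary genes, with 1 member each left, were at -0.25 and -0.46 log2, and cytokine genes turned to -0.0432. Against the mean of 0.5M and 1M, the striatal median was -0.12, dopamine genes turned to 0.0049 and Nudt11 to 0.0264. Against 1M alone, 62 genes were higher and 63 lower. Medians were then 0.14 for glucocorticoid, -0.0228 for interleukin-6 and -0.41 for myelin genes. The sign of the median differed from the main one in 31 of 52 lists, 24 of them with a main median under 0.1 log2 in size, interleukin-6 genes among them. Of the 14 lists with a larger main median, 7 turned, to striatal 0.0245, dopamine 0.0026, housekeeping 0.0211, cytokine -0.0713, platelet and neutrophil -0.0409, lymphocyte -0.0169 and cortical -0.0056 medians. Single genes turned too: Adamts3 0.0227, Ano3 0.30, Nudt11 0.72, Ppp1r1b 0.0897, Prl 0.0144 and Wnt9a -0.0269. Against the mean of sham and 1M, added after seeing the data, 40 genes were higher and 56 lower. The MHC class II median was then -0.39. Pituitary 0.0383, striatal 0.0501, dopamine 0.0085 and cytokine -0.027 medians turned, as did Ano3 0.0664, Gh 0.33, Nudt11 0.0698, Pde10a 0.0335, Ppp1r1b 0.21, Ppp1r2 0.0141 and Prl 0.29. Medians under 0.1 log2 in size changed sign in 17, 18 and 7 lists against the mean of 0.5M and 1M, the mean of sham and 1M, and under cyclic loess. The cause of these turns was not tested. Without the members of the pituitary and striatal lists, also added, the counts were 26 and 28. Depth has no meaning for these arrays, and differences of genes below the filter are limited by signal over background.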

Other observations

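Outside the groups described, the vessel lists were close to level. Vwf, the clotting factor of endothelium, was at 7.38 log2 in sham and between 8.09 and 8.15 on the tumour-bearing arrays, with a difference of -0.02 between 2M and 0.5M. Mfsd2a, the lipid transporter of the blood-brain barrier, was at 10.49, 10.90, 10.92 and 11.15 in the order sham, 0.5M, 1M and 2M. The 16 endothelial markers had a median difference of -0.02 log2. Ppbp, a chemokine of platelets, was at 7.01, 8.04, 8.34 and 8.39. Of the clock genes, Nr1d1, a repressor of the circadian loop, had the largest difference at -0.34 log2 (10.77 at 0.5M and 10.43 at 2M), and the median of 18 was -0.04. Immediate early genes, which report recent neuronal activity, had a median of 0.03 log2 over 18 members, with Egr1 lowest at -0.27.

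Markers of hypothalamic regions had a median of 0.08 log2 over 23 measured members, and of -0.08 with 1M in place of 0.5M. The most positive were Lhx9 and Hmx3, transcription factors of hypothalamic neurons, at 0.43 and 0.42 log2, and both were higher at 1M and 2M than at 0.5M. Gnrh1, the gonadotropin-releasing hormone precursor, was at 6.95 log2 at 0.5M, 6.93 at 1M and 7.34 at 2M, and Ghrh, the growth-hormone-releasing hormone precursor, at 8.27, 8.59 and 7.92.

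Among 12146 probe sets absent from the annotation, 4618 reached the filter value, of which 123 were at least 0.5 log2 higher and 158 lower at 2M. Both shares were larger than the 0.217% and 0.259% of the 11963 genes past the filter, where 1 probe set stood for each gene. The cause was not tested. Among 1621 probe sets with several symbols 861 reached it, of which 2 were higher and 0 lower.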
